A study of Mus musculus with 12 samples.

Results

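The WNT genes described here were 44 listed genes for ligands, receptors, secreted inhibitors, transcription factors and feedback regulators of WNT signalling, without Wnt4 and the R-spondin genes. They were chosen by name, and every probe set annotated to 1 of them alone was taken, which gave 98 of the 45037 probe sets that are not controls. These 98 probe sets belong to 43 of the 44 genes, and Tcf7 is not analysed here. Of the 98, 63 probe sets of 38 genes passed the filter on low values and were tested. Frzb, Fzd9, Wnt10a, Wnt10b and Wnt2b had no probe set that passed it, so nothing is said of a difference in them.

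WNT proteins are secreted lipid-modified ligands that bind Frizzled receptors together with a co-receptor. In the canonical branch Lrp5 and Lrp6 are the co-receptors, the complex of Axin and Apc stops degrading beta-catenin, and beta-catenin (Ctnnb1) switches on target genes with the transcription factors Lef1, Tcf7, Tcf7l1 and Tcf7l2. In non-canonical branches, ligands such as Wnt5a act through Ror1, Ror2 or Ryk without beta-catenin. In the mammary gland, WNT signals take part in ductal growth, side branching and the upkeep of basal stem cells, and several of them lie downstream of progesterone.

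The mice were ovariectomized BALB/c females, 10 weeks old, that were progesterone receptor null or wild type. All received 17β-estradiol (100 ng) for 24 h before 17β-estradiol with progesterone (2.5 ug) was given for 24 h or 8 h. The 4 groups, null at 24 h, wild type at 24 h, null at 8 h and wild type at 8 h, had 3 arrays each, and each array held RNA of whole mammary glands pooled from 3 mice. No group without progesterone was analysed, so an effect of the hormone and a standing difference of the genotypes cannot be told apart, and time on 17β-estradiol differed with the time on progesterone. The labels do not describe the null allele. Values are log2 signals of a probe set, a difference is null minus wild type or 24 h minus 8 h, and a probe set was called where its limma p, adjusted by Benjamini-Hochberg over the 23709 probe sets tested, lay below 0.05.

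Array medians lay between 5.84 and 5.91, and arrays of a group correlated at 0.9645 to 0.9928. Of the probe sets of Pgr, the targeted gene, 1439527_at differed by -0.36 at 24 h (limma adjusted p = 0.45) and was 2.08-fold lower in null glands at 8 h (adjusted p = 0.012). The 8 h call was lost without wild type pool 1, at an adjusted p of 0.0616, or null pool 2. Another Pgr probe set, 1455772_at, went the opposite way, with null glands above wild type glands by 4.28-fold at 24 h and 3.92-fold at 8 h (adjusted p = 9e-05 and 6e-05), so Pgr checks the genotype labels only in part. Every marker of luminal epithelium, basal cells, adipocytes, fibroblasts and endothelium that the array names passed the filter, and so did markers of lymphocytes, macrophages and skeletal muscle. The mean log2 signal of 8 muscle markers spanned 6.32 to 10.77 in null glands and 10.47 to 11.85 in wild type glands at 8 h, and 8.85 to 10.69 in null glands and 10.13 to 12.80 in wild type glands at 24 h. In such bulk RNA, fewer cells of a type and less RNA per cell cannot be told apart.

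Between the genotypes, few WNT genes passed the test, and the ligand Wnt5a was the only gene with a probe set called at both times. At 24 h, 2 of the 63 probe sets were called (3.17%), 1 of Wnt5a that was higher and 1 of Wnt5b that was lower in null glands, against 1.11% of all probe sets tested, 0.232% higher and 0.873% lower. This Wnt5b probe set had passed the filter only through 4 wild type arrays. With a filter of at least 6 arrays above their median, it was not tested and 1 call remained. At 8 h, 4 of 63 were called (6.35%), against 3.07% of all. They were 2 of Wnt5a, higher in null glands, and 2 of Tcf7l2, lower in null glands, against a background of 1.54% higher and 1.54% lower. At an unadjusted p below 0.05, 13 of 63 passed at 24 h (20.6%, background 13.7%) and 12 of 63 at 8 h (19%, background 15.6%). The 3 null and 3 wild type values did not overlap for 14 of the 63 at 24 h (22.2%, background 15.3%) and for 17 at 8 h (27%, background 24.4%). Of the 14 at 24 h, 3 were higher in null glands (4.76% of the 63, background 5.53%) and 11 lower (17.5%, background 9.74%). With each gene represented by its probe set of highest mean, the median difference of the 38 genes was -0.11 at 24 h and 0.04 at 8 h, against a median of -0.01 over all 12002 genes at either time.

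**Figure D1:**
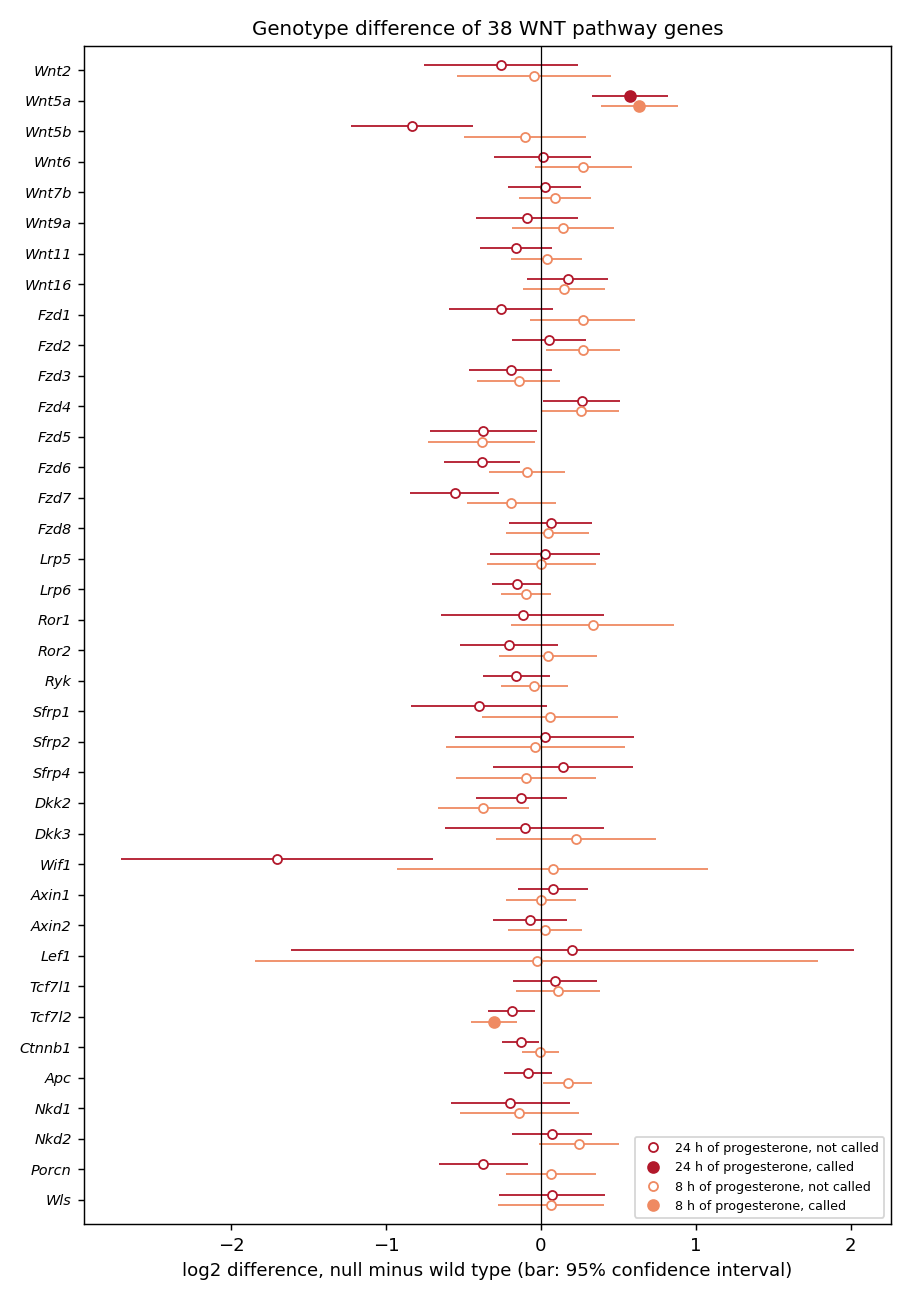
Null minus wild type difference (log2) of the representing probe set of each of the 38 tested WNT genes at 24 h (dark) and 8 h (light), with 95% confidence intervals from limma and filled points for calls. Wnt5a lies right of 0 at both times, by 0.58 at 24 h and 0.64 at 8 h, and Tcf7l2 left of 0, while the widest intervals belong to Lef1 and Wif1.

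Wnt5a, a ligand best known for non-canonical signalling and for restraining mammary branching, was higher in null glands at both times. At 24 h its representing probe set 1436791_at had log2 signals of 8.58, 8.37 and 8.44 in null glands, against 7.74, 8.02 and 7.91 in wild type glands. At 8 h it had 8.90, 8.88 and 9.02 in null glands, against 8.08, 8.32 and 8.49 in wild type glands. Every null pool lay above every wild type pool of its time. The excess in null glands was 1.49-fold at 24 h (adjusted p = 0.033) and 1.55-fold at 8 h (SE 0.11 on the log2 scale, adjusted p = 0.01). The difference at 24 h minus that at 8 h was -0.06, with a 95% confidence interval of -0.41 to 0.29. For probe set 1437673_at the 24 h difference was 0.56 (adjusted p = 0.14) and the 8 h difference 1.62-fold upward (adjusted p = 0.039), and 1448818_at differed by 0.42 at 24 h and 0.60 at 8 h (adjusted p = 0.41 and 0.18). A further Wnt5a probe set, 1456976_at, did not pass the filter.

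Without null pool 3 the 8 h call of 1436791_at was missed, at an adjusted p of 0.0501. Its 24 h call was lost without wild type pool 1 (adjusted p = 0.146) or 3 (0.113) and without null pool 1 (0.0998), 2 (0.0718) or 3 (0.0818), and with only the 24 h arrays in the fit (0.131). The call of 1437673_at was lost without wild type pool 1 (0.136), 2 (0.0796) or 3 (0.11) or null pool 1 (0.125) or 3 (0.122) of 8 h. Of the receptors used by Wnt5a, Ror2 differed by -0.21 at 24 h and 0.05 at 8 h, Ror1 by -0.12 and 0.34, and Ryk by -0.16 and -0.04, and none was called.

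**Figure D2:**
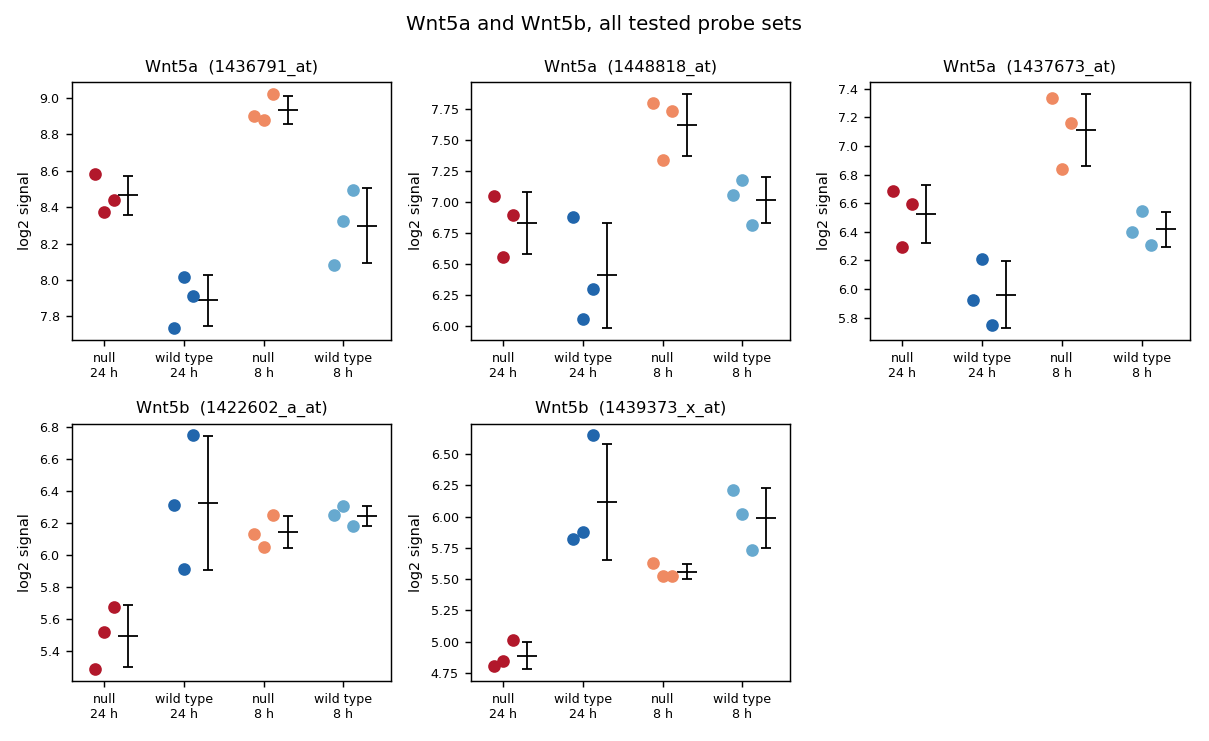
Log2 signal of the 5 tested probe sets of Wnt5a and Wnt5b in each pool (points), with group mean and SD (black, n = 3), in null and wild type glands at 24 h and at 8 h. For Wnt5a 1436791_at the null pools lie above the wild type pools at both times, and for Wnt5b 1439373_x_at the null pools at 24 h, at 4.81 to 5.01, lie below all other pools.

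Wnt5b, a close relative of Wnt5a, went the other way and was lower in null glands at 24 h. Probe set 1439373_x_at had 4.81, 4.85 and 5.01 in null glands at 24 h, against 5.82, 5.88 and 6.65 in wild type glands. At 8 h it had 5.63, 5.52 and 5.53 in null glands, against 6.21, 6.02 and 5.73 in wild type glands. The groups did not overlap at either time. Null glands were 2.34-fold lower at 24 h (SE 0.20 on the log2 scale, adjusted p = 0.014), and the difference at 8 h was -0.43 (adjusted p = 0.34). It passed the filter through 4 wild type arrays, 2 of each time, and no null array, so a probe set kept in this way is one that had to be higher in wild type glands. With no filter its 24 h call was kept (adjusted p = 0.0113). The name of this probe set marks it as one that may bind more than its target. Leaving out null 24 h pool 2 ended the call (adjusted p = 0.0571), and so did a fit of the 24 h arrays alone (0.14).

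The representing Wnt5b probe set, 1422602_a_at, had 5.29, 5.52 and 5.67 in null glands at 24 h, against 6.31, 5.91 and 6.75 in wild type glands. At 8 h it had 6.13, 6.05 and 6.25 in null glands, against 6.25, 6.31 and 6.18 in wild type glands. The null pools were thus lowest at 24 h, while the groups overlapped at 8 h. Its difference was -0.83 at 24 h (adjusted p = 0.056) and -0.10 at 8 h (adjusted p = 0.86). The 24 h difference passed with a replicate block (adjusted p = 0.0383), a robust prior (0.0459), array weights (0.0162) or without wild type 24 h pool 2 (0.0076). The difference between the times was -0.73 (95% confidence interval -1.29 to -0.17), which did not pass (adjusted p = 0.60).

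Markers of epithelial cells moved beside this result. The mean of 9 basal markers spanned 8.06 to 8.31 in null glands and 8.64 to 9.38 in wild type glands at 24 h, where 1 of them (Trp63) was called, lower in null glands, and the median difference was -0.35. The mean of 9 luminal markers spanned 9.37 to 9.60 in null glands and 9.78 to 10.08 in wild type glands at 24 h, with 3 called, all lower in null glands (Cdh1, Cldn3 and Cldn7), and a median difference of -0.26. At 8 h, 3 luminal markers (Cldn4, Krt18 and Krt8) were called higher in null glands, the luminal means spanning 9.76 to 9.97 in null glands and 9.61 to 9.76 in wild type glands. Of all 9 luminal markers 4 lay above 0 and 5 below at 8 h, with a median of -0.03. At 8 h no basal marker was called, at a median of 0.19. Also at 8 h, 3 of 6 brown adipocyte markers (Cidea, Fabp3 and Ucp1) were called higher in null glands, their means spanning 9.87 to 10.67 in null glands and 8.36 to 9.28 in wild type glands. The part of these markers in the WNT differences was not tested.

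The promoters of Wnt5b and Tcf7l2, both called for genotype, and of Axin2, the standard target of canonical signalling, are shown as the 250 bases before the most 5′ start in RefSeq (GRCm38.p6). Wnt5b lies at chr6:119544348-119544597 on the minus strand, Tcf7l2 at chr19:55741560-55741809 on the plus strand and Axin2 at chr11:108920099-108920348 on the plus strand. Capitals mark the only match in them to the motifs searched.
Wnt5b: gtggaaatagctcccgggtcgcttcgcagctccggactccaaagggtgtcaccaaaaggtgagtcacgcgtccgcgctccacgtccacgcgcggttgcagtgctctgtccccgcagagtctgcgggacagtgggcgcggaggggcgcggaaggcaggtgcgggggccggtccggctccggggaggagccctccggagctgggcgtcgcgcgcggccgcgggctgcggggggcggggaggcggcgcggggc
Tcf7l2: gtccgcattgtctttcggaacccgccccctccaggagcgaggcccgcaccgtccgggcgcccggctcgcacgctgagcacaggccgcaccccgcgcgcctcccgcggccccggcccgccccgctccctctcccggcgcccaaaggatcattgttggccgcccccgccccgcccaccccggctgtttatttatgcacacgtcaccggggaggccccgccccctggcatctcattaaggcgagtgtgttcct
Axin2: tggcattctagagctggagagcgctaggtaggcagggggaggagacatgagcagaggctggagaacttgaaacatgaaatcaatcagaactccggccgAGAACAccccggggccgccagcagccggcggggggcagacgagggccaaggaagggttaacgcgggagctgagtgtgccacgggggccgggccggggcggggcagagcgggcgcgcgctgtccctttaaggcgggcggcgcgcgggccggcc
Both strands were searched for 2 motifs, neither of which contains the other. The first was the TCF/LEF motif CTTTGAT, which reads as ATCAAAG on the opposite strand. The other was the hexamer TGTTCT, which reads as AGAACA on the opposite strand and is bound by the progesterone receptor and related steroid receptors. Of the 44 genes, 29 had a promoter in the table. The TCF/LEF motif was in 1 of the 29 (Wnt11), against 3.26% of all 27025 promoters. The hexamer was in 2 of the 29 (Axin2 and Dkk2), against 16.15% of all, and in Axin2 it lies 152 to 147 bases before the start. A match describes letters in this window and shows no binding.

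None of the other 6 ligand probe sets tested was called for genotype by limma, and 0 had an unadjusted p below 0.05 at either time. Over all probe sets, 1.11% were called at 24 h and 3.07% at 8 h, and 13.7% and 15.6% had such an unadjusted p. Wnt16 differed by 0.17 at 24 h and 0.15 at 8 h, Wnt2 by -0.26 and -0.04, Wnt6 by 0.01 and 0.27, Wnt7b by 0.03 and 0.09, Wnt9a by -0.09 and 0.14, and Wnt11 by -0.16 and 0.04. Porcn, the enzyme that attaches the lipid to WNT proteins, had 7.01, 6.98 and 6.77 in null glands and 7.12, 7.50 and 7.24 in wild type glands at 24 h. Its groups did not overlap there, and its difference was -0.37 (adjusted p = 0.24). Wls, which carries WNT proteins to the cell surface, differed by 0.07 at 24 h and 0.06 at 8 h.

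Among the receptors, 0 of the 21 tested Frizzled, Lrp, Ror and Ryk probe sets were called for genotype by limma at either time. Over all probe sets 1.11% were called at 24 h and 3.07% at 8 h. An unadjusted p below 0.05 was found for 4 of the 21 at 24 h and 3 at 8 h, against 13.7% and 15.6% of all. The Frizzled genes with the largest differences at 24 h were Fzd7, a receptor linked to basal mammary stem cells, Fzd6 and Fzd5. Fzd7 had 8.91, 8.75 and 8.56 in null glands and 9.13, 9.18 and 9.57 in wild type glands at 24 h. The groups did not overlap, and null glands were lower by a difference of -0.56 (1.47-fold, adjusted p = 0.076). At 8 h Fzd7 had 9.03, 9.13 and 9.09 in null glands and 9.13, 9.24 and 9.46 in wild type glands, a difference of -0.19 (adjusted p = 0.54). Fzd6 differed by -0.38 at 24 h and -0.09 at 8 h (adjusted p = 0.15 and 0.78). Fzd5 differed by about the same amount at each time, -0.37 at 24 h and -0.38 at 8 h (adjusted p = 0.33 and 0.27).

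Other receptor genes differed in either direction or lay near 0. Fzd4, a receptor also used by the non-WNT ligand norrin, was 0.26 higher in null glands at 24 h and 0.26 at 8 h (adjusted p = 0.34 and 0.30). Fzd2 at 8 h had 7.15, 7.43 and 7.19 in null glands and 6.99, 6.99 and 6.98 in wild type glands, which did not overlap, and differed by 0.27 (adjusted p = 0.25). Fzd1 differed by -0.26 at 24 h and 0.27 at 8 h, Fzd3 by -0.19 and -0.14, and Fzd8 by 0.06 and 0.04. The co-receptor genes Lrp5 and Lrp6 differed by 0.03 and -0.15 at 24 h and by less than 0.01 and by -0.09 at 8 h.

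Secreted inhibitors, which bind WNT proteins (Sfrp and Wif1) or Lrp co-receptors (Dkk2), were not called for genotype either, in any of 10 probe sets. Dkk3 was counted with them. The shares called over all probe sets were 1.11% at 24 h and 3.07% at 8 h. Of the 10, 1 at 24 h and 2 at 8 h had an unadjusted p below 0.05, against 13.7% and 15.6% of all. Wif1 had the largest difference of any WNT gene, with 4.64, 6.29 and 4.35 in null glands and 6.45, 6.56 and 7.37 in wild type glands at 24 h. Null pool 2 lay close to the wild type pools and the other null pools far below them. The difference was -1.70 (3.26-fold lower, SE 0.46 on the log2 scale, adjusted p = 0.12), and it was called without null 24 h pool 2 (-2.30, adjusted p = 0.0151). At 8 h Wif1 had 5.78, 6.28 and 6.62 in null glands and 5.73, 6.05 and 6.68 in wild type glands, which overlapped. Dkk2 had 5.69, 5.50 and 5.38 in null glands at 8 h, all below the 5.78, 5.89 and 6.02 of wild type glands (difference -0.37, adjusted p = 0.19). Sfrp1 1428136_at had 7.56, 7.96 and 7.91 in null glands and 6.84, 6.77 and 7.60 in wild type glands at 8 h, which just overlapped (difference 0.74, adjusted p = 0.12). The representing Sfrp1 probe set 1448395_at differed by 0.06 at 8 h, 1438620_x_at by 0.05 and 1416594_at by -0.02. Null and wild type means of 1448395_at at 24 h were 7.02 and 7.42, and those of 1428136_at were 6.92 and 7.08. The other tested Sfrp1 probe sets went the other way at 24 h. Their means were 6.77 and 6.57 for 1438620_x_at and 5.81 and 5.57 for 1416594_at. Dkk3 differed by -0.11 at 24 h and 0.23 at 8 h in its representing probe set 1448669_at, and by -0.16 and 0.29 in 1417312_at. Sfrp2 and Sfrp4 differed by 0.03 and 0.14 at 24 h and by -0.04 and -0.10 at 8 h.

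Tcf7l2, a transcription factor that carries beta-catenin to target genes, was lower in null glands at 8 h. Probe set 1429428_at had 9.21, 9.08 and 9.07 in null glands, against 9.47, 9.41 and 9.39 in wild type glands. Probe set 1429427_s_at, whose name marks it as shared by several transcripts, had 7.61, 7.63 and 7.64 in null glands, against 8.01, 8.10 and 8.12 in wild type glands. Neither overlapped between the genotypes. Null glands were lower 1.23-fold (SE 0.07 on the log2 scale, adjusted p = 0.036) and 1.37-fold (adjusted p = 0.04). The third tested probe set, 1425229_a_at, differed by -0.33 (adjusted p = 0.39). At 24 h the differences were -0.19, -0.24 and -0.02 and none was called. The size of the 8 h differences ranged from -0.49 to -0.43 for 1429427_s_at and from -0.35 to -0.28 for 1429428_at over the alternatives, while their calls were often lost. The call of 1429427_s_at was lost whichever 8 h pool was left out (adjusted p from 0.101 to 0.142), and that of 1429428_at was lost in 5 of 6 cases (0.0654 to 0.158) and kept without null 8 h pool 1. With quantile normalization the adjusted p was 0.0538 for 1429428_at and 0.0665 for 1429427_s_at, and with no filter it was 0.066 and 0.0615.

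Axin2, the feedback inhibitor most used as a readout of canonical WNT signalling, was not called for genotype. It had 7.88, 7.96 and 8.00 in null glands and 8.06, 8.03 and 7.96 in wild type glands at 24 h. At 8 h it had 8.18, 7.93 and 7.89 in null glands and 8.18, 7.98 and 7.76 in wild type glands. The values overlapped at both times. The difference was -0.07 at 24 h (95% confidence interval -0.31 to 0.17) and 0.03 at 8 h (-0.21 to 0.27). The 24 h interval includes a difference as large as the -0.30 called for Tcf7l2 1429428_at at 8 h. The Naked cuticle homologs Nkd1 and Nkd2, which dampen signalling at Dishevelled, differed by -0.20 and 0.07 at 24 h and by -0.14 and 0.24 at 8 h. For Nkd2 at 8 h the null values of 6.27, 6.16 and 6.13 lay above the wild type values of 6.02, 5.91 and 5.90, without passing the test (adjusted p = 0.35). Tcf7l1, which mostly acts as a repressor in this family, differed by 0.09 at 24 h and 0.11 at 8 h. In their representing probe sets, Ctnnb1 differed by -0.13 and Axin1 by 0.08 at 24 h, and both by less than 0.01 at 8 h. At 24 h Ctnnb1 had 12.80, 12.84 and 12.83 in null glands and 12.90, 12.91 and 13.04 in wild type glands. These did not overlap, and the difference was not called. Null and wild type means at 8 h were 7.49 and 7.30 for Ctnnb1 1430533_a_at and 10.03 and 9.97 for 1450008_a_at. At 24 h they were 7.39 and 7.54, and 9.69 and 9.75. Apc was not called for genotype. Null and wild type means of its representing probe set 1420956_at were 9.24 and 9.33 at 24 h and 9.68 and 9.51 at 8 h. Its pools did not overlap between the genotypes at either time. Means of 1435543_at were 8.86 and 8.89 at 24 h and 9.30 and 9.08 at 8 h. Those of 1450056_at were 6.37 and 6.58 at 24 h and 6.93 and 6.83 at 8 h.

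**Figure D3:**
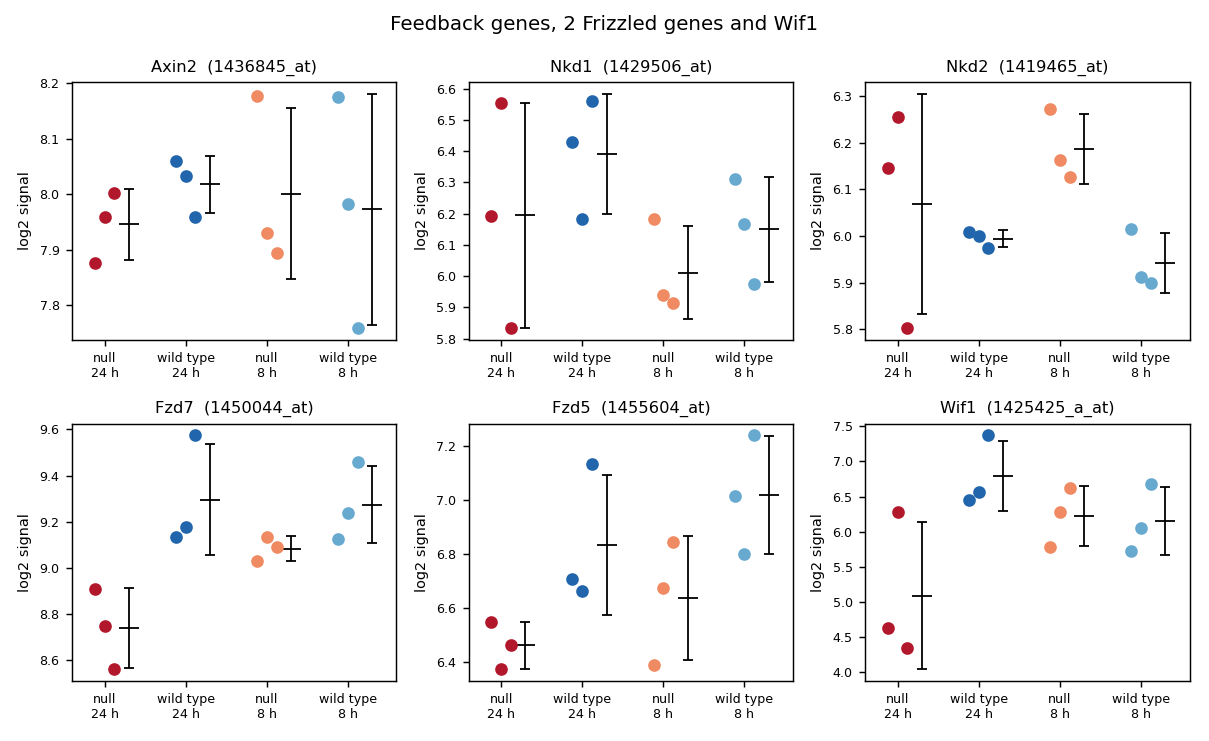
Log2 signal in each pool (points) with group mean and SD (black, n = 3) for 3 feedback genes, the receptors Fzd7 and Fzd5, and the inhibitor Wif1. The Axin2 values of the genotypes overlap at both times, the Fzd7 values do not overlap at 24 h, and 1 null pool of Wif1 at 24 h, at 6.29, lies apart from the other 2.

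The genotype difference was also compared between the times. None of the 63 probe sets was called for it by limma, against 0.143% of all probe sets. At an unadjusted p below 0.05, 7 of 63 passed (11.1%, background 5.67%). These 7 belonged to Apc, Fzd1, Porcn, Sfrp1, Wif1 and Wnt5b. The median of the 38 genes was -0.11, with 12 above 0 and 26 below, against a median of -0.01 over all genes. The number of arrays limits this comparison more than the others, as it sets 4 groups of 3 against each other, and a p that misses the threshold does not show that the times were alike.

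Between 24 h and 8 h, Sfrp4 and 1 probe set of Tcf7l2 were called lower at 24 h in both genotypes. Over all probe sets, calls were more frequent than for genotype, and the WNT share in wild type glands lay near that of all. In null glands 8 of 63 probe sets were called (12.7%), against 4.4% of all. They were 1 higher at 24 h (Wnt16, background 0.814%) and 7 lower (Wnt5a, Sfrp1, Sfrp4, Tcf7l2 and 3 of Apc, background 3.59%). In wild type glands 4 of 63 were called (6.35%), against 5.22% of all. They were 1 higher at 24 h (Wnt16, background 1.53%) and 3 lower (Sfrp4 and 2 of Tcf7l2, background 3.69%). In both genotypes the higher call is of Wnt16, which passed the filter only through 24 h arrays and so had to be high at 24 h. At an unadjusted p below 0.05, 24 of 63 passed in null glands (38.1%, background 21.1%) and 18 of 63 in wild type glands (28.6%, background 21.5%). Values of the times did not overlap for 25 of 63 in null glands (39.7%, background 26%) and 20 of 63 in wild type glands (31.7%, background 25.9%). The median over the 38 genes was -0.12 in null glands and 0.07 in wild type glands, against -0.02 and -0.01 over all genes. Whether the time differences themselves differed between the genotypes is the comparison above, in which 0 were called.

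Sfrp4, a secreted antagonist, was lower at 24 h in both genotypes. In null glands its values were 9.02, 8.37 and 8.33 at 24 h, against 9.32, 9.61 and 9.53 at 8 h. The wild type values were 8.01, 8.66 and 8.62 at 24 h, against 9.72, 9.36 and 9.67 at 8 h. The times did not overlap in either genotype. The fall was 1.89-fold in null glands (SE 0.21 on the log2 scale, adjusted p = 0.033) and 2.22-fold in wild type glands (adjusted p = 0.013). The call in null glands ended when null pool 2 or 3 of 8 h (0.109 and 0.112) or of 24 h (0.128 and 0.0934) was left out, and that in wild type glands without pool 1 of 8 h (0.0666).

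Wnt16, a ligand known for its role in bone, was called higher at 24 h in both genotypes. Its probe set passed the filter only through 24 h arrays (3 null and 2 wild type arrays) and through no 8 h array, so it was tested because it was high at 24 h. With no filter the adjusted p was 0.0358 in null glands and 0.0407 in wild type glands. In null glands it had 6.09, 6.0 and 6.03 at 24 h, against 5.55, 5.50 and 5.47 at 8 h. Wild type glands had 5.80, 5.89 and 5.91 at 24 h, against 5.10, 5.50 and 5.47 at 8 h. Again the times did not overlap. The difference was 1.45-fold in null glands (SE 0.12 on the log2 scale, adjusted p = 0.033) and 1.42-fold in wild type glands (adjusted p = 0.034), at signals near the array median. In null glands the call was lost whichever pool was left out (adjusted p from 0.0561 to 0.116), and in wild type glands in 5 of 6 cases (0.053 to 0.125), being kept without wild type 8 h pool 3 (0.0476).

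Tcf7l2 fell with time in both genotypes, and Wnt5a in null glands. Tcf7l2 1429427_s_at had 7.18, 6.88 and 7.07 in null glands at 24 h, against 7.61, 7.63 and 7.64 at 8 h. Wild type glands had 7.50, 7.17 and 7.19 at 24 h, against 8.01, 8.10 and 8.12 at 8 h. The times did not overlap in either genotype. The fall was 1.49-fold in null glands (adjusted p = 0.013) and 1.73-fold in wild type glands (adjusted p = 0.0033), and the wild type call was kept under all 17 alternatives that could be run on it. The null call ended without pool 3 of 8 h (0.0619) or pool 2 of 24 h (0.0569). Its representing probe set 1429428_at fell 1.21-fold in wild type glands (adjusted p = 0.045), a call lost whichever pool was left out (0.0591 to 0.171), and differed by -0.16 in null glands (adjusted p = 0.22). Wnt5a 1436791_at was 1.38-fold lower at 24 h in null glands (adjusted p = 0.041) and differed by -0.41 in wild type glands (adjusted p = 0.059). That call ended without any of the 8 h null pools (0.0674, 0.0937 and 0.144) and without pool 2 (0.148) or 3 (0.0949) of 24 h.

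Apc, the scaffold of the beta-catenin destruction complex, fell in null glands in all 3 tested probe sets. The representing probe set 1420956_at had 9.18, 9.27 and 9.28 in null glands at 24 h, against 9.60, 9.65 and 9.80 at 8 h. Wild type glands had 9.33, 9.29 and 9.36 at 24 h, against 9.49, 9.47 and 9.57 at 8 h. The times did not overlap in either genotype. The fall in null glands was 1.36-fold (SE 0.07 on the log2 scale, adjusted p = 0.0083), and it was called whichever pool was left out. The other Apc probe sets, 1435543_at and 1450056_at, fell by 0.44 and 0.56 on the log2 scale in null glands (both adjusted p = 0.018). With only the null arrays in the fit, all 3 calls were lost (adjusted p = 0.052 for 1420956_at, 0.0714 for 1435543_at and 0.0771 for 1450056_at). With the replicate block added there, 1435543_at (0.0559) and 1450056_at (0.0585) were still lost. Leaving out a pool ended the call of 1435543_at without pool 2 (0.0531) or 3 (0.0838) of 8 h, and that of 1450056_at without pool 3 of 8 h (0.0842) or pool 2 (0.0753) or 3 (0.051) of 24 h. In wild type glands the 3 differences were -0.19, -0.19 and -0.24 (adjusted p from 0.16 to 0.22), and for the representing probe set the difference between the genotypes was not called (-0.26, adjusted p = 0.76).

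**Figure D4:**
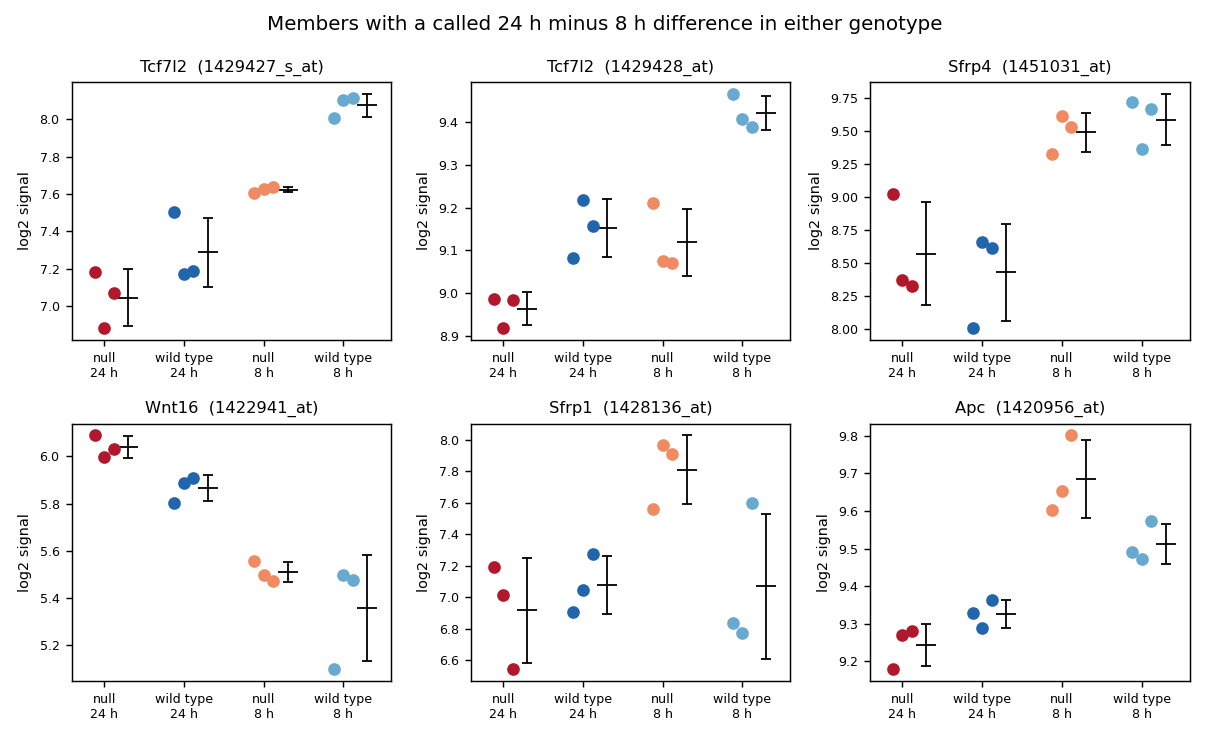
Log2 signal in each pool (points) with group mean and SD (black, n = 3) for Tcf7l2, Sfrp4, Wnt16, Sfrp1 and Apc 1420956_at. Each of these WNT genes had a called difference between 24 h and 8 h in either genotype. Wnt5a, also called in null glands, is shown in the plot of the Wnt5a and Wnt5b probe sets. Sfrp4 is lower at 24 h in both genotypes, Wnt16 is higher there but passed the filter only through 24 h arrays, while the Apc values of null glands, at 9.18 to 9.28 at 24 h, lie below the null 8 h values of 9.60 to 9.80.

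Sfrp1, another secreted antagonist, gave different values by probe set. Probe set 1428136_at had 7.19, 7.02 and 6.54 in null glands at 24 h, against 7.56, 7.96 and 7.91 at 8 h, with no overlap. The fall was 1.86-fold (SE 0.23 on the log2 scale, adjusted p = 0.049). It was not called with the replicate number as a block (adjusted p = 0.0501), and when each of the 6 null pools was left out in turn it was kept only without pool 1 of 24 h (0.044). The representing probe set 1448395_at differed by -0.77 (adjusted p = 0.054, and 0.0376 with the block), and 1438620_x_at and 1416594_at by -0.13 and -0.15. With the block, Wnt5b 1422602_a_at (0.0454), Wnt5a 1448818_at (0.0252) and Ctnnb1 1450008_a_at (0.0386) were also called lower at 24 h in null glands, so that 11 probe sets passed in place of 8. Among the 7 fibroblast markers 1 was called lower at 24 h in null glands (Pdgfrb), their means spanning 12.07 to 12.45 at 24 h and 12.20 to 12.72 at 8 h, and among 7 endothelial markers 3 were (Kdr, Pecam1 and Tie1). Their part in these falls was not tested.

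Other genes of the pathway were read from a list of 62, of which 61 were on the array and 45 were tested by their representing probe set. At 8 h, 2 were called higher in null glands, the R-spondin receptor genes Lgr5 (2.09-fold, adjusted p = 0.0057) and Lgr4 (1.34-fold, 0.041), and 1 lower, their relative Lgr6 (1.50-fold, 0.045). At 24 h, 3 were called, all lower in null glands. They were the growth genes Myc (2.15-fold, adjusted p = 0.015) and Ccnd1 (2.04-fold, 0.0041), both known WNT targets that other signals also control, and Lgr6 (1.77-fold, 0.014). The Lgr5 probe set passed the filter only through 3 null arrays (2 of 8 h and 1 of 24 h), the genotype in which it was called higher, and without null 8 h pool 1 or 3 it was not tested. With no filter its adjusted p was 0.00425. Ccnd1 was called whichever pool was left out. The calls of Lgr4 and Lgr6 at 8 h were lost whichever pool was left out (0.0556 to 0.183 and 0.0573 to 0.149). At 24 h Myc was lost in 3 of 6 cases (without wild type pool 1 or 3 or null pool 2) and Lgr6 in 4 of 6 (without wild type pool 1 or 3 or null pool 2 or 3). Over all 12002 genes 0.25% were called higher and 1.05% lower at 24 h, and 1.42% higher and 1.58% lower at 8 h. At an unadjusted p below 0.05, 11 of the 45 passed at each time, against 13.8% of all genes at 24 h and 16.3% at 8 h. The median differences were -0.10 at 24 h and -0.03 at 8 h.

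Between the times, 2 of the 45 were called in null glands, both lower at 24 h, the kinase gene Csnk1e (-0.54, adjusted p = 0.019) and Ccn5 (-0.90, 0.035). Over all genes 0.733% were called higher and 3.83% lower at 24 h in null glands, and 1.45% and 3.82% in wild type glands. In wild type glands Csnk1e (-0.55, adjusted p = 0.017) and the planar polarity gene Prickle1 (-0.42, 0.021) were lower at 24 h and Lgr4 (0.38, 0.046) higher. Of these calls, Csnk1e in null glands ended without pool 3 of 8 h or pool 2 or 3 of 24 h, and Ccn5 without pool 2 or 3 of 8 h or pool 1 or 3 of 24 h. In wild type glands Csnk1e was lost without wild type 8 h pool 1 or 2, Prickle1 without any wild type 8 h pool or 24 h pool 3, and Lgr4 without any 8 h pool or 24 h pool 2 or 3. For the genotype difference between the times, 0 of the 45 were called, against 0.133% of all genes. Of the 45, 4 had an unadjusted p below 0.05, against 6.21% of all genes.

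The WNT genes varied among pools of a group by a median SD of 0.17, against 0.14 over all tested probe sets. Lef1, a transcription factor of this pathway that lymphocytes also express, varied most, with an SD of 1.21. It had 6.28, 8.61 and 9.99 in null glands and 8.49, 7.0 and 8.77 in wild type glands at 24 h. At 8 h it had 6.71, 7.59 and 7.72 in null glands and 8.10, 7.87 and 6.12 in wild type glands. The genotypes overlapped fully, and the difference of 0.20 at 24 h and of -0.03 at 8 h (95% confidence interval -1.84 to 1.79) could not be told from 0 at this spread.

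Lef1 followed the mean of 6 lymphocyte markers over the 12 pools. That mean was 5.75, 8.05 and 9.04 in null glands and 8.00, 6.56 and 8.27 in wild type glands at 24 h, and 5.34, 6.74 and 7.03 in null glands and 7.27, 7.16 and 5.42 in wild type glands at 8 h. Pearson's r was 0.975 and Spearman's rho 0.979 (permutation p = 1e-05 for each, the smallest the permutations can give, and 0.0034 adjusted over 342 relations of the 38 genes with 9 marker lists). Without the 2 pools farthest from the median of the markers r was 0.989, and on deviations from the group means it was 0.984. Sfrp1 followed 7 endothelial markers (r = 0.931, rho = 0.944, permutation p = 2e-05 and 4e-05, adjusted 0.0034 and 0.0068, r = 0.87 without 2 pools and 0.807 on deviations). Sfrp2, an antagonist that fibroblasts express, followed 6 macrophage markers (r = 0.874, rho = 0.888, permutation p = 0.00015 and 0.00028, adjusted 0.017 and 0.03, r = 0.862 without 2 pools) and 7 fibroblast markers (r = 0.83, rho = 0.888, permutation p = 0.0009 and 0.00035, adjusted 0.038 and 0.03, r = 0.744 without 2 pools). Fzd7 and the basal markers had an r of 0.828 and a rho of 0.699 (permutation p = 0.00079 and 0.014, adjusted 0.038 and 0.22), and 0.666 without 2 pools. Of the 342 relations, 4 more passed by Pearson's r and not by Spearman's rho after adjustment. Ctnnb1 followed the basal markers with r = 0.854 and rho = 0.769 (permutation p = 0.00041 and 0.0048, adjusted 0.035 and 0.15, r = 0.756 without 2 pools). Fzd6 followed them with r = 0.793 and rho = 0.706 (permutation p = 0.00085 and 0.013, adjusted 0.038 and 0.22, r = 0.651 without 2 pools). Sfrp1 followed the fibroblast markers with r = 0.833 and rho = 0.741 (permutation p = 0.001 and 0.0078, adjusted 0.039 and 0.2, r = 0.726 without 2 pools). Fzd5 ran opposite to the brown adipocyte markers with r = -0.84 and rho = -0.769 (permutation p = 0.00068 and 0.0047, adjusted 0.038 and 0.15, r = -0.657 without 2 pools). The permutations exchanged pools across the 4 groups, so differences between groups also enter these p-values. On deviations from the group means, r with the basal markers was 0.793 for Fzd7, 0.678 for Ctnnb1 and 0.609 for Fzd6. It was -0.676 for Fzd5 with the brown adipocyte markers and 0.778 for Sfrp1 with the fibroblast markers. For Sfrp2 it was 0.938 with the macrophage and 0.957 with the fibroblast markers. What these relations come from was not tested.

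**Figure D5:**
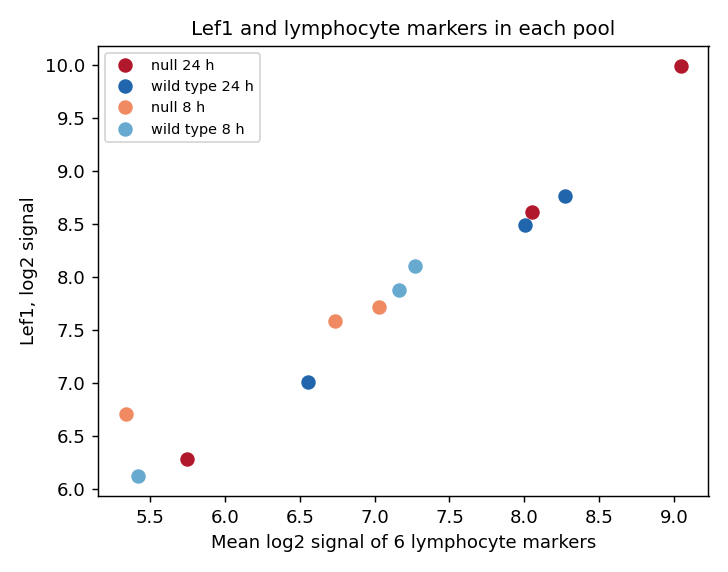
Log2 signal of Lef1 (y axis) against the mean log2 signal of 6 T and B lymphocyte markers (x axis) in each of the 12 pools, coloured by group. The pools lie along a line (r = 0.975) and the groups are mixed along it.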

How the data were processed

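RNA of 12 mammary gland pools was measured on Affymetrix arrays. The authors deposited 1 table of probe sets by arrays, used here as log2 values, a scale judged from their range. MAS5 is named in the submitters' processing notes, without a version, and how the authors summarized and normalized the arrays is not stated in the sources used here. The platform annotation gave 34945 of 45037 probe sets 1 gene symbol, 932 several and 9160 none, and only the first were named.

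A probe set was tested if 3 or more of the 12 arrays had it above their median, which kept 23709. Under R 4.3.3, limma 3.58.1 fitted 4 group means with 8 residual degrees of freedom, and eBayes used a trend in the prior variance. SE is the moderated standard error. The p-values rest on the spread between pools, labelled as biological replicates.

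The genes and lists were chosen with earlier results of these data known. Every listed gene that was tested was named with a value, and of the other pathway genes those called. Correlations used 100000 permutations. Same-numbered null pools deviated together between the times (r = 0.517, 0.264 and 0.384). For null pools of 8 h and wild type pools of 24 h r was 0.303, 0.073 and 0.265, and each other pair of groups had a negative r among its pools. In those other pairs r reached 0.453 for wild type pool 1 between the times and 0.433 for pool 3 of the 24 h groups. It fell to -0.304 for pool 3 of wild type at 8 h and null at 24 h. The labels give only a replicate number, so whether the numbers pair the pools is not known. The main fit had no block and takes no account of such a pairing. Fits with the replicate number as a block are given beside it. The fit was tested on simulated data. Alternatives covered the filter, normalization, a floor, the prior, array weights, the arrays fitted, a block, 1 probe set per gene and each array left out.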

Additional observations from a re-analysis of the deposited data

How the results depend on the processing

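Of the 63 WNT probe sets, 0 called differences changed sign under any alternative, and 0 were called for the genotype difference between the times under any of them. For genotype at 24 h, the 2 calls and the 262 over all probe sets became 5 and 685 with array weights, 0 and 71 with only the 24 h arrays, 1 and 165 with 1 probe set per gene, and 1 to 4 and 118 to 694 with a pool left out. A stricter filter gave 1 call. For genotype at 8 h, the 4 calls became 2 with no filter, quantile normalization or 1 probe set per gene, 15 with array weights and 0 to 2 with a pool left out, while the 729 over all became 4017 with array weights, 338 with 1 probe set per gene and 318 to 571 with a pool left out. The 34 calls over all probe sets for the difference between the times became 21 with the stricter filter, 169 with array weights, 10 with 1 probe set per gene and 7 to 37 with a pool left out. For time in null glands, the 8 calls and 1044 over all became 26 and 5775 with array weights, 1 and 348 with only the null arrays, 4 and 572 with 1 probe set per gene, and 1 to 7 and 228 to 1009 with a pool left out. For time in wild type glands, the 4 calls and 1238 over all became 2 and 500 with only the wild type arrays, and 1 to 4 and 234 to 855 with a pool left out, and those over all became 648 with 1 probe set per gene. Fewer probe sets are tested with 1 per gene, and fewer arrays enter the narrower fits; the other causes were not tested.

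With the replicate number as a block in all 12 arrays, the calls over all probe sets became 482 for genotype at 24 h and 1667 for time in null glands, and the WNT calls 3 (with Wnt5b 1422602_a_at), 11, 5 for time in wild type glands (with Fzd1, adjusted p = 0.05 after rounding) and 4 for genotype at 8 h, and the block changed no other WNT call. The block within only the groups compared, chosen after seeing the data, gave 2 WNT calls for genotype at 8 h, 0 WNT calls and 52 over all for genotype at 24 h, 4 and 566 for time in null glands, and 590 over all for time in wild type glands.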
